A study of Mus musculus with 6 samples.

Results

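The genes described here are 40 members of the nuclear receptor superfamily, taken by name, and 38 of them were measured among the 18193 genes of a whole-genome Affymetrix array in mouse uterus. Only probe sets annotated to a single symbol were used, and of several for a gene the brightest on average across the 6 arrays stood for it. Nr1h2 and Nr2e3 had no such probe set in the annotation used here and were not analysed. The related receptors Pgr, Nr5a1, Nr5a2, Nr0b1, Nr0b2 and Nr2f2 are not on the list.

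Uterine horns without cervix were compared between C57BL6J mice of the genotype Pgrcre/+ SF1LsL/+ (SF1 group, 3 arrays) and SF1LsL/+ (control group, 3 arrays). Both groups carry the SF1 transgene, which is silent until Cre recombinase removes a stop sequence, and the SF1 group alone has Cre, placed at Pgr and so active where the progesterone receptor is expressed. Cre, the altered Pgr allele and the active transgene therefore differ together between the groups. Each array held RNA pooled from 2 uteri, taken 2 weeks after a surgery. The kind of surgery, the age and hormonal state of the mice and the time of day are not given in the sources used here, and p-values measure the spread between pools.

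Nuclear receptors are transcription factors whose zinc finger domain binds short DNA elements and whose second domain binds small fat-soluble ligands such as steroids, thyroid hormone, retinoids and fatty acids. Steroid receptors bind DNA as homodimers, receptors for thyroid hormone, retinoic acid, vitamin D, fatty acids and oxysterols pair with a retinoid X receptor, and some orphan receptors bind as monomers. In the uterus estrogen acts mainly through Esr1 and progesterone through Pgr, and SF1, the transgene product, is itself a nuclear receptor encoded by Nr5a1.

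Levels are given as deposited, as linear array intensities. Differences are on the log2(intensity + 16) scale, SF1 minus control. They come from a limma fit over all probe sets, and a gene is called at a Benjamini-Hochberg adjusted p under 0.05. Folds are of intensity + 16 too, which makes them smaller than folds of intensity, most of all for dim genes. Array medians lay between 149.9 and 162.2. The brighter of 2 mouse Nr5a1 probe sets did not follow the genotype, at 152 ± 17.4 in control and 151 ± 0.131 in SF1 (SD, n = 3). Whether it reads the transgene is not known here. The means of 23 of the 38 receptor genes were above the median probe set mean of 160.0. Of those 23, 6 were called, against 2 of the 15 dimmer genes. Over all genes 2998 of 18193 were called, and 3244 of 11687 (1526 higher and 1718 lower) in a fit of the brighter probe sets only. That fit called 1 of the 23 receptor genes higher and 6 lower.

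Of the 38 receptor genes, 7 fell in SF1, 1 rose and 30 were not called. That is 18.4% fallen and 2.63% risen, where 8.11% of all genes fell and 8.37% rose. These shares over all genes are not matched to the receptor genes for brightness. Fallen were Rorb, Rarg, Thra, Rxra, Nr6a1, Nr2c1 and Pparg, and Esrrg rose. Rorb fell most, by 1.55 on the log2 scale. The other fallen genes lay between -0.63 and -0.38. The median log2 difference over the 38 genes was -0.03, against -0.05 over all genes, and the median size of the difference without its sign was 0.16, against 0.15. The 2 groups did not overlap for 11 receptor genes, 8 lower and 3 higher in SF1, which is 28.9% where 39.9% of all genes did not overlap. With each array centred on its median, 2 receptor genes rose and 6 fell, while the split over all genes went from 1523 higher and 1475 lower to 1782 higher and 1056 lower. After quantile normalization the receptor counts were 2 and 7, and those over all genes 1690 and 1223.

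**Figure D1:**
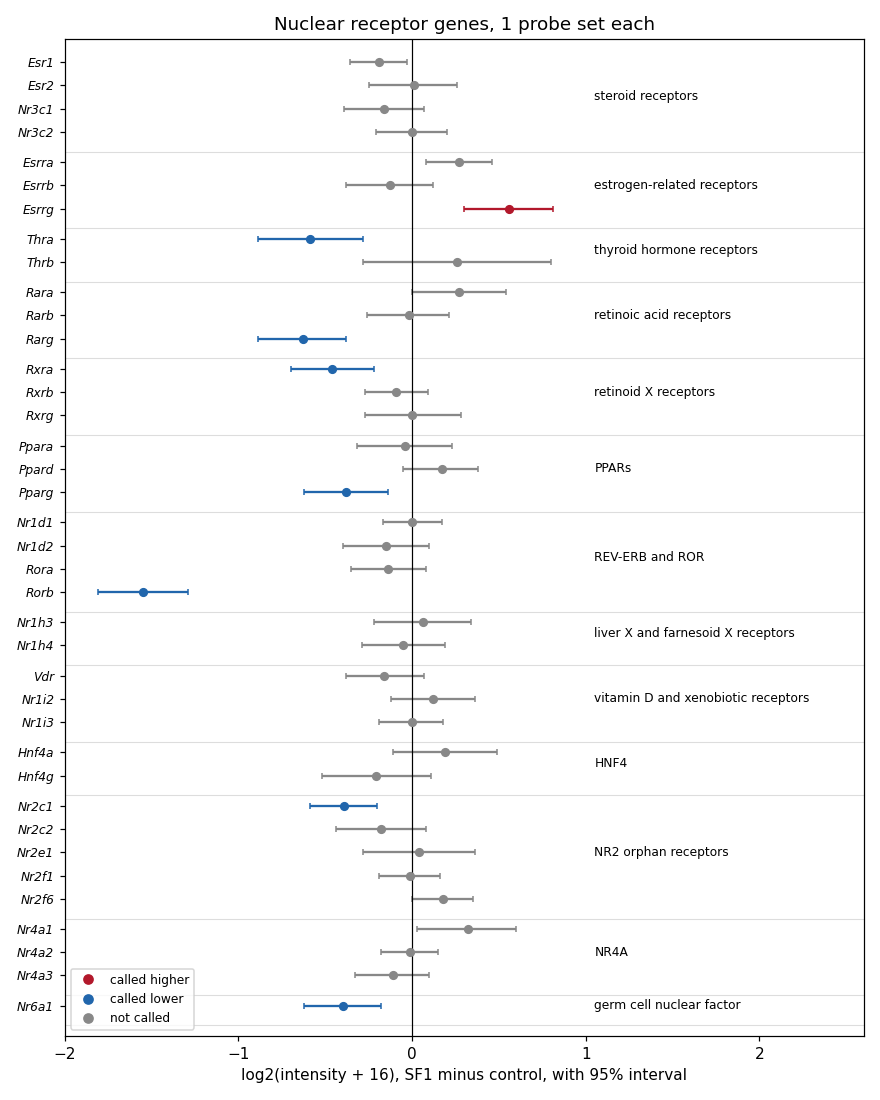
Log2 difference of each of the 38 measured receptor genes, SF1 minus control, with its 95% interval from limma, grouped by receptor class. Colour marks the call at an adjusted p under 0.05. Rorb lies at -1.55, away from the 30 uncalled genes, which lie between -0.21 and 0.32.

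The count of fallen receptors was lower without any single array, as was that over all genes, which went from 1475 to between 908 and 1118. The receptor count was 2 without SF1 replicate 1, 4 without SF1 replicate 2, SF1 replicate 3, control replicate 1 or control replicate 2, and 5 without control replicate 3. Of the 8 called genes, Rorb and Rarg kept their call in all 17 alternatives. Esrrg was called in every fit that left out an array other than control replicate 1 (adjusted p = 0.0519). The count of risen genes was therefore 0 without control replicate 1, and it was 2 without SF1 replicate 1, where Hnf4a was added, or SF1 replicate 3, where Nr4a1 was added.

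Markers of the cell types of the uterus moved as well. Endometrial stroma markers fell for 6 of 9 genes, with a summed intensity between 44162 and 45555 in control and between 35138 and 36085 in SF1. Endothelial markers fell for 6 of 8 (5066 to 5361 in control, 3444 to 3909 in SF1), but for 4 or 5 in the fits without an array and for 4 with median centring. Uterine epithelium markers rose for 6 of 10 and fell for 1 (17921 to 18830 and 21350 to 23493). Ciliated epithelium markers rose for 7 of 8, with a summed intensity between 1228 and 1332 in control and between 6107 and 9669 in SF1, and for 7 in every fit without an array. Macrophage markers rose for 6 of 8 (5331 to 7675 and 9178 to 13191), but for 2 without SF1 replicate 1 or SF1 replicate 2. T cell markers rose for 4 of 7 (1030 to 1252 and 1668 to 1903), but for 2 without SF1 replicate 1, SF1 replicate 2 or control replicate 1. Rises among the epithelial markers numbered 3 without SF1 replicate 1. SF1 replicate 2 stood apart by some of the 7 neutrophil markers, of which 0 were called. S100a8 read 11518 there and 327 and 192 in SF1 replicates 1 and 3, and S100a9 read 9468, 211 and 137, against at most 337 and 247 in control. Camp, Ngp and Cxcr2 also read above every control array in SF1 replicate 2 (277, 532 and 228). Mpo (87.6) and Elane (64.1) lay within the control range there. Cd14, a macrophage marker, was also highest there, at 3087 against 1149 in both other SF1 arrays. No smooth muscle marker of 8 was called, although 1 rose with median centring, and no listed marker was at 0. In whole tissue, fewer cells of a type and less RNA per cell cannot be told apart, and the part of these shifts in the receptor values was not tested.

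Among the steroid hormone receptors none of the 4 measured genes was called. Esr1, the main estrogen receptor of the uterus, read 8887, 9037 and 8976 on the control arrays and 7985, 7466 and 8060 on the SF1 arrays, here and throughout in the order of replicates 1, 2 and 3. Every SF1 array was below every control array, but the difference was small, at -0.19 (95% interval -0.36 to -0.03, limma adjusted p = 0.118). It passed the threshold after quantile normalization (-0.29, adjusted p = 0.0442) and with a trended, robust variance (adjusted p = 0.0227). Esr2, the other estrogen receptor, was dim, between 48.5 and 68.8 in control and between 56.6 and 65.8 in SF1, and differed by 0.01 (-0.25 to 0.26).

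Nr3c1, the glucocorticoid receptor gene, read 1287, 1196 and 1312 in control and 1240, 987 and 1171 in SF1. The groups overlapped, and the log2 difference was -0.16 (-0.39 to 0.07, limma adjusted p = 0.313). None of its 6 probe sets was called. Nr3c2, the mineralocorticoid receptor gene, averaged 315 in both groups, with SDs of 15.4 and 29.9.

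The estrogen-related receptors are orphan receptors close in sequence to Esr1 that act with the coactivator PGC-1 on genes of energy metabolism. Esrrg read 62.5, 61.4 and 82.5 in control and 99.95, 107 and 118 in SF1. It was below the median probe set in both groups, and all SF1 arrays were above all control arrays. The log2 rise was 0.56 ± 0.11 (SE; limma adjusted p = 0.0122), a 1.47-fold change. A dimmer probe set of Esrrg went from 27.6 ± 8.03 to 92.2 ± 19.4 (SD, n = 3), a log2 rise of 1.31 (adjusted p = 0.000882), and the third gave -0.16 and was not called.

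Esrra read 190, 196.5 and 203 in control and 248, 253 and 220 in SF1, again without overlap. Its log2 difference of 0.27 ± 0.08 (SE) just missed the threshold (limma adjusted p = 0.0641). It was called with quantile normalization (0.0369), median centring (0.0387), the brighter probe sets only (0.0316) or a pseudocount of 64 (0.0449). Its other probe set gave -0.06. Esrrb differed by -0.13 with overlapping groups.

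Of the receptors for thyroid hormone, Thra fell. It read 1585, 1912 and 1688 in control and 1180, 943 and 1336 in SF1, so that the highest SF1 array stayed below the lowest control array. The log2 change was -0.59 ± 0.13 (SE; limma adjusted p = 0.0208). A further probe set fell from 973 ± 28.6 to 700 ± 64.2 (SD, n = 3; -0.47, adjusted p = 0.00864) and the third gave -0.27 without a call. The call was lost without SF1 replicate 1, control replicate 2 or control replicate 3 (highest adjusted p = 0.0579). Thrb, the second thyroid hormone receptor gene, had a single low array, control replicate 2 at 65.05, while the remaining 5 lay from 119 to 151, and its interval from -0.28 to 0.80 was the widest of the 38 genes.

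Rarg, one of the receptors that bind retinoic acid, read 965, 1067 and 910 in control and 646, 539 and 701 in SF1. The groups were well apart, at -0.63 ± 0.11 on the log2 scale (SE; limma adjusted p = 0.00665) and a level 1.55-fold lower in SF1. Its highest adjusted p with an array left out was 0.0271. A second, dim probe set of Rarg gave -0.11 and was not called. Rara (0.27, adjusted p = 0.172) and Rarb (-0.02, adjusted p = 0.897) were dim and overlapped between groups.

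Rxra encodes a retinoid X receptor, the shared partner of the retinoic acid, thyroid hormone, vitamin D and fatty acid receptors. It read 640, 725 and 549 in control and 450, 445 and 473 in SF1. The control arrays spread more than the SF1 arrays, with SDs of 88.5 and 15.1, and the groups did not overlap. The log2 change was -0.46 ± 0.11 (SE; limma adjusted p = 0.0224). The call was lost without any SF1 replicate or without control replicate 1 (highest adjusted p = 0.0748), and neither other probe set, at -0.38 and -0.27, was called. Rxrb was not called, with a mean of 864 in control and 810 in SF1 and an interval from -0.27 to 0.09, and Rxrg differed by 0.00.

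The PPARs are fatty acid receptors that control lipid storage and breakdown. Pparg, the receptor needed for fat cell formation, read 165, 203 and 221 in control and 152, 143 and 143 in SF1. The lowest control array was close to the highest SF1 array. The log2 change of -0.38 ± 0.11 (SE) was at the threshold (limma adjusted p = 0.0489). It was not called in 12 of 17 alternatives, among them median centring (adjusted p = 0.0836) and every fit without an array other than control replicate 1 (highest 0.124). Of 6 measured fat cell markers, 2 fell (Retn and Thrsp) and 4 were not called, and their summed intensity was between 11162 and 16923 in control and between 3337 and 11139 in SF1. The count of fallen markers was 3 without SF1 replicate 1, 2 without control replicate 1 and 1 without SF1 replicate 2, SF1 replicate 3, control replicate 2 or control replicate 3. Adipoq, the fat cell hormone adiponectin, read 2385, 3592 and 2797 in control and 2748, 1505 and 405 in SF1, so that SF1 replicate 1 lay within the control range. Thrsp, the only one of the 6 not lowest in SF1 replicate 3, read 2242, 2735 and 2667 in control and 1186, 1038 and 1049 in SF1. The part of fat cells in the Pparg value was not tested. Ppara (-0.04) and Ppard (0.17) were not called, although a dimmer Ppara probe set rose by 0.37 (adjusted p = 0.0427).

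Rorb showed the largest difference of the superfamily genes listed. It encodes an orphan receptor related to the retinoic acid receptors, best known from the retina and from the brain's clock tissues. Its brightest probe set read 548, 451 and 407 in control and 144, 142 and 160.0 in SF1. SF1 arrays lay close together and far below all control arrays. The log2 change was -1.55 ± 0.11 (SE; limma adjusted p = 6.6e-05), a level 2.93-fold lower in SF1. Both other probe sets fell, from 364 ± 48.9 to 126 ± 9.17 (-1.42, adjusted p = 8.18e-05) and from 211 ± 26.5 to 135 ± 7.96 (SD, n = 3; -0.58, adjusted p = 0.00586). With an array left out, the highest adjusted p was 0.000714.

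Its relatives in the clock were not called. Rora, an activator of clock genes, read 899, 939 and 980 in control and 860, 765 and 940 in SF1, with overlap, and none of its 9 probe sets was called. Nr1d1 and Nr1d2 encode the REV-ERB repressors, which bind the same element as the ROR proteins. Nr1d1 averaged 305 in both groups (0.00, interval -0.17 to 0.17), and Nr1d2 read 5956, 6745 and 5543 in control and 5769, 4791 and 5847 in SF1 (-0.15, limma adjusted p = 0.381).

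Receptors of oxysterols, bile acids, vitamin D and foreign compounds were not called. Nr1h3, the liver X receptor alpha gene, averaged 296 ± 54.5 in control and 306 ± 16.1 in SF1 (SD, n = 3). Nr1h4, the bile acid receptor, Vdr, the vitamin D receptor, and the xenobiotic receptors Nr1i2 and Nr1i3 all had means below the median probe set, between 46.1 and 123 in control. Their log2 differences lay between -0.16 and 0.12. At such low intensities a background signal cannot be separated from expression in these files, which hold no detection calls.

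Hnf4a, a receptor of liver and gut epithelium, was not called by its brightest probe set, at 264 ± 7.3 in control and 307 ± 58 in SF1 (SD, n = 3; 0.19, limma adjusted p = 0.36). A dim probe set of the same gene, singled out after its values were seen, read 12.4, 11.1 and 10.7 in control and 77.2, 46.1 and 67.4 in SF1. All SF1 arrays were above all control arrays, with a log2 rise of 1.52 ± 0.14 (SE; adjusted p = 0.000204). The other Hnf4a probe sets gave 0.07 and -0.06, and the mean of all 4 passed the threshold (0.43, adjusted p = 0.00303). Without SF1 replicate 1 the brightest probe set was called too (0.35, adjusted p = 0.049). Hnf4g was dim and differed by -0.21 with overlap.

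Nr2c1, the testicular receptor 2 gene and an orphan receptor that mostly represses, read 965, 918 and 828 in control and 652, 686 and 712 in SF1. No arrays overlapped. The log2 change was -0.39 ± 0.09 (SE; limma adjusted p = 0.018), and a further probe set fell from 243 ± 12.4 to 181 ± 8.33 (SD, n = 3; adjusted p = 0.0123), while 3 others were not called. Without SF1 replicate 1, SF1 replicate 2 or control replicate 1 the call was lost (highest adjusted p = 0.0701). Its close relative Nr2c2 read 1946, 2323 and 1792 in control and 1901, 1610 and 1808 in SF1 (-0.18, adjusted p = 0.317), and none of its 6 probe sets was called.

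Nr2f1 and Nr2f6, of the COUP-TF group, and Nr2e1, known from neural stem cells, were not called. Nr2f1 differed by -0.01 (interval -0.19 to 0.16). Nr2f6 was higher in every SF1 array, at 503, 494 and 468 against 436, 411 and 445, but its 0.18 had a limma adjusted p of 0.164.

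The NR4A genes are immediate early genes that respond within minutes to many stimuli, and their products act without a known ligand. Nr4a1 read 319, 326 and 337 in control and 438, 476 and 333 in SF1. SF1 replicate 3 lay within the control range and the other 2 SF1 arrays above it, and the log2 difference of 0.32 (0.03 to 0.60) had a limma adjusted p of 0.132. Without SF1 replicate 3 it was 0.46 and was called (adjusted p = 0.0194). It was 0.21 and was not called without SF1 replicate 2, the array with the high S100a8 and S100a9 values. Nr4a2 (-0.01) and Nr4a3 (-0.11) were not called, although 1 of 6 Nr4a2 probe sets rose by 0.41 (adjusted p = 0.026).

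Nr6a1, the germ cell nuclear factor, is an orphan receptor that represses pluripotency genes in the embryo. It read 175, 204 and 164 in control and 127, 142 and 130 in SF1, without overlap (-0.40 ± 0.10, SE; limma adjusted p = 0.0281). The call was lost without SF1 replicate 1, SF1 replicate 3, control replicate 1 or control replicate 2 (highest adjusted p = 0.0977). The mean of its 5 probe sets was not called either.

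**Figure D2:**
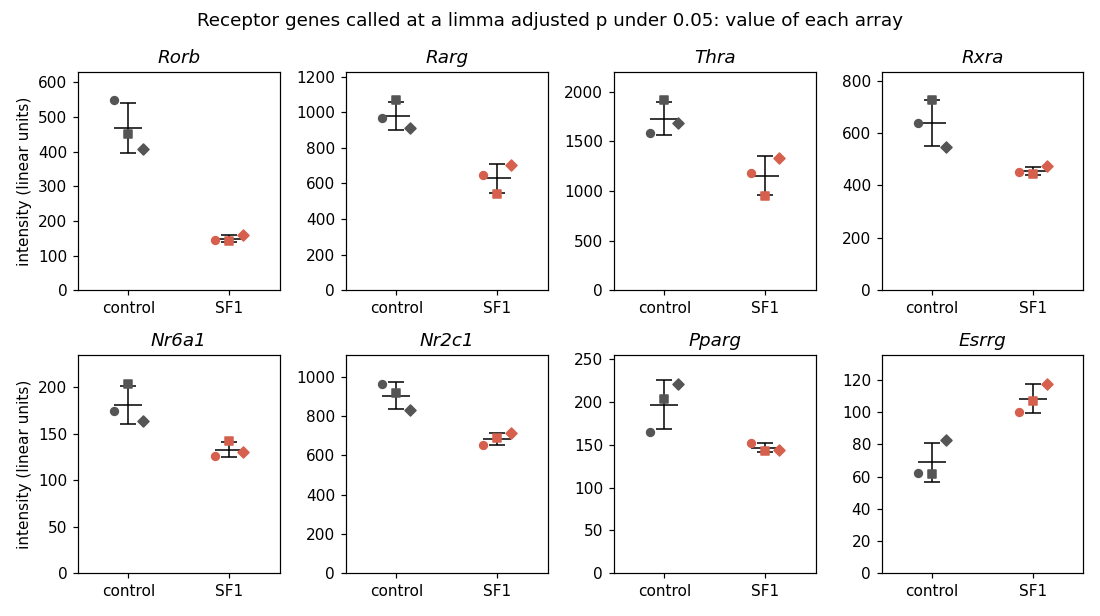
Intensity of each array (linear scale from 0) for the 8 called receptor genes; circles, squares and diamonds are replicates 1, 2 and 3, bars the mean and SD of 3 arrays. All control arrays lie above all SF1 arrays for Rorb (407 to 548 against 142 to 160.0) and the other 6 fallen genes, and below them for Esrrg.

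The 38 genes had 98 probe sets in all. Of the 60 that did not represent their gene, 8 were called, 4 higher and 4 lower, which is 13.3% where 14% of all probe sets were called. Of 7 called genes with further probe sets, 4 (Rorb, Thra, Nr2c1 and Esrrg) had another called the same way and 0 the opposite way. Rarg, Rxra and Nr6a1 rested on 1 probe set each, and Pparg had no other. The remaining 3 genes with a called probe set (Hnf4a, Ppara and Nr4a2) rose on it while their brightest probe set was not called. Probe sets of a gene can read different transcript ends, and which isoforms these read is not known here.

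**Figure D3:**
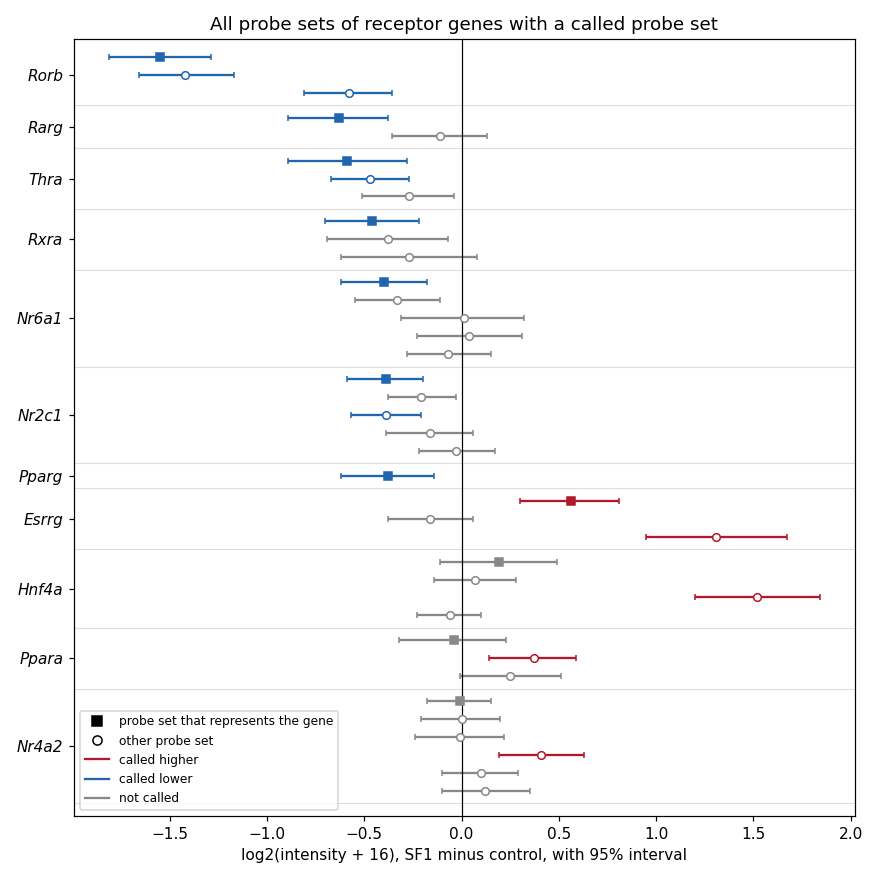
Log2 difference with 95% interval for every probe set of the 11 receptor genes that had a called probe set; filled squares represent the gene and open circles are its other probe sets. All 3 Rorb probe sets lie below 0, while Hnf4a has a single probe set at 1.52 beside 3 between -0.06 and 0.19.

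Of the 30 genes without a call, 4 had an unadjusted p under 0.05 (Esr1, Esrra, Nr2f6 and Nr4a1). For 28 of the 30, all but Thrb and Nr4a1, the 95% interval lay within a 1.5-fold change in either direction on the scale of the fit. That scale adds a constant to each intensity, so the bound on intensity itself is wider, most of all for dim genes. The spread between arrays of 1 group limits what these pools can show. The median SD of log2 values was 0.14 in control and 0.11 in SF1 for the receptor genes, against 0.10 in both groups for all genes.

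Promoter sequences of the called receptors are shown because most non-steroid receptors, among them the RAR, RXR, PPAR and ROR proteins and SF1, recognise versions of the half-site AGGTCA. RefSeq promoters (GRCm38.p6) matched 35 of the 38 measured genes by symbol (all but Thra, Nr3c1 and Hnf4g), with 55 windows of the 250 bases before an annotated start. The letters AGGTCA, on either strand, occurred in 16.4% of these windows and in 14% of all 32851 windows. Of the 7 called genes with windows, 4 fallen genes held them. They stood in 1 of 2 windows each of Rarg, Rxra and Nr6a1 and in 2 of 3 of Pparg, and in none of those of Rorb, Nr2c1 or Esrrg. No share per gene over all genes is given here, so the gene counts have none to be read against. Windows of the uncalled Nr1d2, Nr1h4, Rxrg and Thrb held them too. AAGGTCA, which contains AGGTCA, was in windows of Rxra, Nr6a1 and Rxrg and in 4.08% of all windows. The longer CAAGGTCA, which contains both and is the core that SF1 is known to bind, was in 0 of the 55 receptor windows and in 1.33% of all windows. The windows below are 5′ to 3′ in the direction of the gene, with AGGTCA or its reverse complement in capitals. They are every window of a called gene that holds it, and for comparison the most upstream window of Rorb, which holds none.
Rorb, chr19:19111197-19111446, minus strand: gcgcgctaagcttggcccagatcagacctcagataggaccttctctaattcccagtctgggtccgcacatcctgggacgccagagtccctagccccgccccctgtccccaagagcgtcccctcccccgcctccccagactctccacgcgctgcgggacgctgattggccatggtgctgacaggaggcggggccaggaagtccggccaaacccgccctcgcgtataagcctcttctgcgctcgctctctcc
Rarg, chr15:102257523-102257772, minus strand: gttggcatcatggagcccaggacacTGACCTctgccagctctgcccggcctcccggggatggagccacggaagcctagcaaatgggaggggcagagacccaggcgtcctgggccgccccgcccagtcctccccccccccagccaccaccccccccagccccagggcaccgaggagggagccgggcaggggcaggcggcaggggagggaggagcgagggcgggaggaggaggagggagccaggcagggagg
Rxra, chr2:27709042-27709291, plus strand: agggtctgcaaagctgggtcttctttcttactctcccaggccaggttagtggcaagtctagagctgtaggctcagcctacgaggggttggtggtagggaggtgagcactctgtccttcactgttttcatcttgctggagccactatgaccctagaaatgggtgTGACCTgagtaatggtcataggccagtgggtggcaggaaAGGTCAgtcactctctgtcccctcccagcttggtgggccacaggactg
Nr6a1, chr2:38784516-38784765, minus strand: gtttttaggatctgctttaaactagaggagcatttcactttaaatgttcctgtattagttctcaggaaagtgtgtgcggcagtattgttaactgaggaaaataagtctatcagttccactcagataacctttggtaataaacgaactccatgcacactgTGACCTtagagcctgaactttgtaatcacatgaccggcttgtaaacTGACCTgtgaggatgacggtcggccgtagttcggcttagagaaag
Pparg, chr6:115360894-115361143, plus strand: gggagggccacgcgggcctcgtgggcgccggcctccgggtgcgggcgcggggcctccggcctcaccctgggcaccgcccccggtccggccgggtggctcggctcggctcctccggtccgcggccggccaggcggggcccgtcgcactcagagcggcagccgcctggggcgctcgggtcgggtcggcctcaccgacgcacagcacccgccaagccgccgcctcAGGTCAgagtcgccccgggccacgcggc
Pparg, chr6:115362099-115362348, plus strand: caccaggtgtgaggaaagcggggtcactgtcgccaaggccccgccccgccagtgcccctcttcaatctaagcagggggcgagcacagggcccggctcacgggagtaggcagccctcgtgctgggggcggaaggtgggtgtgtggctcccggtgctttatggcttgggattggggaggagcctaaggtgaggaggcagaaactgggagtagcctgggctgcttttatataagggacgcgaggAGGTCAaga
Rxra and Nr6a1 hold 2 matches each, the Rarg window and both Pparg windows 1. A match is a string of letters and not a measured binding site.

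The genes that work with the receptors were taken as 8 lists, whose medians can be read against -0.05 over all genes, and whose counts against the 8.37% of all genes that rose and the 8.11% that fell. Of 28 measured coregulators, which link receptors to chromatin enzymes, 0 rose and 2 fell (limma; median -0.03), and 1 rose after quantile normalization or median centring. Ppargc1a, the PGC-1 alpha coactivator of the estrogen-related receptors and PPARs, fell from 371 ± 26.9 to 247 ± 19.2 (SD, n = 3; -0.55, adjusted p = 0.00455), and Trim24 fell by 0.42 on the log2 scale. Of 13 chaperones and cochaperones of steroid receptors, 2 rose and 1 fell (median 0.07). Fkbp5, which lowers hormone binding by the glucocorticoid receptor, rose from 374 ± 37 to 817 ± 69.3 (SD, n = 3; 1.10, adjusted p = 0.000194). Bag1 rose by 0.34 and St13 fell (-0.40), but Bag1 lost its call in 5 of the 6 fits without an array (highest adjusted p = 0.0791) and St13 without control replicate 1 (0.0501).

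Of 18 clock genes 0 rose and 1 fell (median -0.08), with Usp2, a deubiquitinase gene, at -0.58. Leaving out SF1 replicate 1 or SF1 replicate 2 ended that call (adjusted p up to 0.0549), while 2 clock genes fell without SF1 replicate 3 and 1 rose without control replicate 1 or with median centring. Of 16 PPAR targets 1 rose and 1 fell (median -0.06). Cpt1a, the gate of fatty acid entry into mitochondria, rose by 0.49 (adjusted p = 0.00409), and Acot1, an acyl-CoA thioesterase gene, fell (-0.58). The list shares Adipoq and Fabp4 with the fat cell markers, and 2 targets fell without SF1 replicate 3.

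Of 14 liver X receptor targets 1 rose and 5 fell (median -0.20), and with median centring 2 rose and 3 fell. Apoe, a lipid carrier, rose by 0.60, while Scd1 (-1.29) and Fasn (-0.83), enzymes of fatty acid synthesis, fell most. Fallen targets numbered 3 without SF1 replicate 1, SF1 replicate 2 or control replicate 2, 2 without SF1 replicate 3 or control replicate 1, and 1 without control replicate 3. Scd1 lost its call in 5 of the 6 fits (highest adjusted p = 0.0995) and read 3741, 2082 and 1264 in SF1 replicates 1 to 3, and Fasn lost it in 2 (0.0518). Fat cells also express Scd1 and Fasn; of their 6 markers 2 fell, and the part of fat cells in these values was not tested.

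Of 11 targets of thyroid hormone or vitamin D, 2 rose and 3 fell (median 0.02). Thrsp, a thyroid hormone target that is also a fat cell marker here, fell from 2548 ± 267 to 1091 ± 82.2 (SD, n = 3; -1.21, limma adjusted p = 0.000129), and so did Calb1, a calcium-binding protein gene (-0.77). Me1 (0.97) and Dio1 (0.84) rose, but Dio1 and Calb1 each lost their call in 4 of the 6 fits (highest adjusted p = 0.11 and 0.0805). The count of risen genes was 1 without SF1 replicate 1, SF1 replicate 3, control replicate 2 or control replicate 3.

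Genes known to respond to glucocorticoids moved in both directions, with 6 of 15 risen and 4 fallen (median 0.08). Besides Fkbp5, Ddit4 rose by 0.79, while Mt2 (-1.28), a metallothionein gene, and Zbtb16 (-0.71) fell. Fallen genes numbered 2 without SF1 replicate 1, SF1 replicate 2, control replicate 1 or control replicate 2, and Zbtb16 lost its call in 4 of the 6 fits (highest adjusted p = 0.0898). Of 13 immediate early genes, the group to which the NR4A genes belong, 3 rose and 0 fell (median 0.17). Fos rose by 1.25 and Junb by 0.77. The count was 0 without SF1 replicate 1, 1 without control replicate 3, and 2 without SF1 replicate 2, control replicate 1 or control replicate 2. Fos and Junb read highest in SF1 replicate 2, at 1036 and 1148, and both were called without it. Fos lost its call in 2 fits (highest adjusted p = 0.0548) and Junb in 4 (0.0908).

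**Figure D4:**
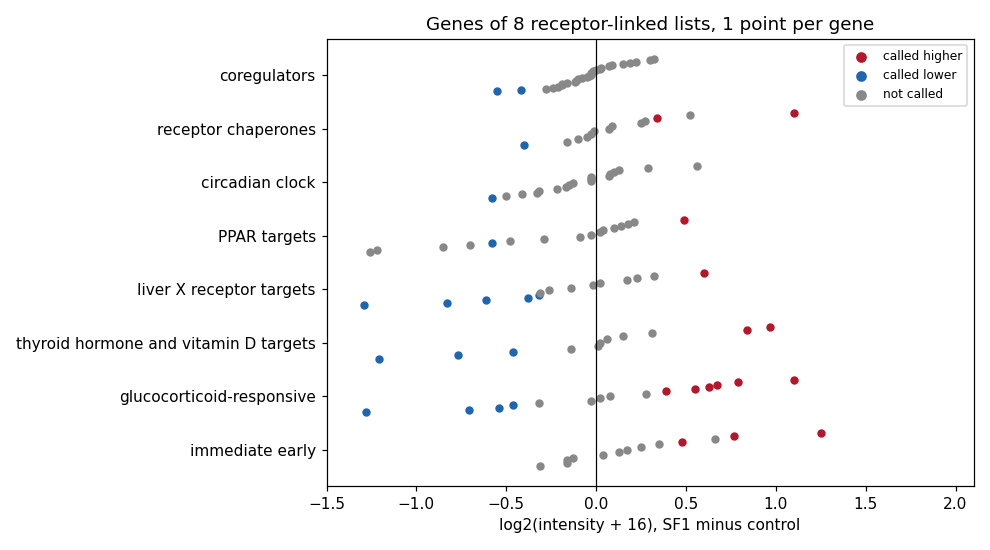
Log2 difference of each measured gene of 8 receptor-linked lists, SF1 minus control, 1 point per gene; colour marks the call at a limma adjusted p under 0.05. Liver X receptor targets have 5 fallen and 1 risen gene, and glucocorticoid-responsive genes 4 fallen and 6 risen.

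Of the receptors outside the list, Nr2f2, which encodes the stromal COUP-TFII, fell from 3618 ± 261 to 2437 ± 207 (SD, n = 3; -0.57, limma adjusted p = 0.00474). Pgr (-1.34) and Nr5a2 (-0.95) fell as well, and Nr0b1 rose by 5.04. Nr0b2 rose by 0.42 (adjusted p = 0.0209), a call lost in 4 of the 6 fits without an array (highest adjusted p = 0.0793).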

How the data were processed

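Gene expression in 6 pools of mouse uterus was measured on 1-colour Affymetrix Mouse Genome 430 2.0 arrays, per the labels' protocols. The authors deposited linear intensities per probe set, from 1.0 to 25324.74. How background was removed and arrays were scaled is not stated in the sources used here, and those choices act most on dim probe sets. Without the 64 controls among 45101 probe sets, 45037 were tested as log2(intensity + 16) with limma 3.58.1 (lmFit and eBayes) in R 4.3.3, with Benjamini-Hochberg adjustment over all of them. For each gene the probe set of highest average log2 value was taken among the 34945 with 1 symbol, so gene levels are not compared with each other. Tables and figures used Python 3.11.15, pandas 2.3.3 and matplotlib 3.10.9.

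The members, the receptor-linked lists and the cell type markers came from textbook knowledge, but they were chosen with earlier results of these data known. Named are all members, and of each list up to 2 risen and 2 fallen genes with the largest called change. Alternatives were quantile normalization, median centring, brighter probe sets only, the replicate number as a block, trended robust eBayes, array weights, pseudocounts of 1 and 64, averaging probe sets per gene, an adjusted p under 0.01, a fold of at least 1.5, and each array left out. On simulated data the fit called 0% of 1.3-fold changes, 36% of 1.5-fold, 74% of 2-fold and 98% of 4-fold changes. The fit of the arrays did call Pparg, Nr2c1, Nr6a1 and Rxra, which were 1.3-fold, 1.31-fold, 1.32-fold and 1.38-fold lower in SF1. Whether these percentages hold for the arrays was not tested. A gene without a call can still have a change of a small size. Same-numbered control and SF1 arrays did not deviate together. That gives no sign that the replicate numbers pair the samples, but so few arrays cannot exclude it. The number of arrays limits the precision.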

Additional observations from a re-analysis of the deposited data

How the results depend on the processing

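Of the 8 called receptor genes, 2 (Rorb and Rarg) kept their call under all 17 alternatives and 0 changed sign, while 15 uncalled genes changed sign in some alternative. The count of risen receptor genes was 1, and 2 after quantile normalization, median centring, with a pseudocount of 64 or when probe sets were averaged per gene. It was 0 at an adjusted p under 0.01 or with a fold of at least 1.5, where 848 and 780 of all genes rose in place of 1523. Without single arrays the receptor count ranged from 0 to 2, and that over all genes from 1025 to 1294. The count of fallen receptor genes was 7, and 3 with the replicate block, 2 at an adjusted p under 0.01 and 3 with a fold of at least 1.5. Over all genes 932, 710 and 499 fell in those settings, in place of 1475. Without single arrays the receptor count ranged from 2 to 5, and that over all genes from 908 to 1118. No pairing was seen for the block to rest on, though so few arrays cannot exclude one. Correlations of same-numbered arrays' deviations from their group means were -0.0633, -0.101 and -0.184. Over all genes the block gave 2071 calls in place of 2998. The median log2 difference of the receptor genes, -0.03, was 0.02 after quantile normalization, 0.02 after median centring and -0.13 with the brighter probe sets only, where 23 genes were tested. Over all genes it was -0.05, and -0.02, -0.00 and -0.04 in those settings. Without single arrays the receptor median ranged from -0.07 to -0.03. A stricter p or a fold limit can only lose calls, and median centring moves all genes of an array alike. The cause of the other changes was not tested. Fits without an array have fewer samples, and the 15 receptor genes read by a probe set at or below the median are limited by signal over background.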

Other observations

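The SF1 arrays did not fall in 1 order over the receptor genes. SF1 replicate 1 read lowest of the 3 SF1 arrays for 17 of the 38 genes, replicate 2 for 15 and replicate 3 for 6, while replicate 2 read highest for 17, replicate 3 for 15 and replicate 1 for 6. Esr1, Nr3c1, Thra, Rarg, Rora, Nr1d2 and Nr2c2 were among the 15 lowest in replicate 2, the array with the high S100a8 and S100a9 values. The 3 NR4A genes were among the 17 highest there by their brightest probe sets. For Nr4a2 the margin was small (236, 251 and 247 in SF1 replicates 1 to 3), and its called probe set read lowest in replicate 2 (280, 229 and 263). The part of neutrophils in the receptor values was not tested, nor were these counts, which describe 3 pools.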
